A study of Homo sapiens with 6 samples.

Results

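The nuclear-encoded structural subunits of the respiratory chain and ATP synthase were followed in HCT116 cells carrying a hairpin against PRSS22. HCT116 is an established human colorectal cancer line, and PRSS22 encodes a serine protease. Members were taken by gene symbol: NDUFA, NDUFB, NDUFC, NDUFS and NDUFV genes without the NDUFAF assembly factors, UQCR genes, COX4 to COX8 genes, ATP5 genes, SDHA to SDHD and CYC1. This gave 87 of the 17269 genes in the table, of which 38 were assigned to complex I, 4 to complex II, 10 to complex III, 15 to complex IV and 20 to complex V. The symbol rule does not use any measured value. NDUFA4 and its paralog NDUFA4L2 carry complex I names but were counted with complex IV, where NDUFA4 is now placed. The subunits encoded by the mitochondrial genome were not analysed here.

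Polyadenylated RNA was sequenced from 3 libraries labelled shCtrl, whose genotype label is wild type, and 3 labelled shPRSS22, whose genotype label is PRSS22 knockdown. All 6 came from HCT116 cells grown in RPMI1640 with serum and antibiotics. The labels give no hairpin sequence, no time after transduction and no clone, and do not say whether libraries of a group came from separate cultures, so p-values measure the spread between these libraries, which may be technical. Libraries held 14920523 to 15466647 estimated counts. Levels are CPM, counts scaled to a common library total with the trimmed-mean method, given as mean ± SD over n = 3 libraries. A gene rose or fell where edgeR's quasi-likelihood test gave a Benjamini-Hochberg adjusted p under 0.05 over the 13104 genes tested. Log2 fold changes are shPRSS22 over shCtrl, and SE is the standard error of the log2 fold change.

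The inner mitochondrial membrane carries the chain. Complex I oxidises NADH and complex II oxidises succinate, both passing electrons to ubiquinone; complex III passes them on to cytochrome c, and complex IV passes them to oxygen. Complexes I, III and IV pump protons, and the return of those protons through complex V drives ATP synthesis. Each complex apart from complex II joins nuclear-encoded subunits to mitochondrially encoded ones, so the genes below are one of the 2 sets of parts.

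PRSS22 (chromosome 16, 2852727 to 2858170 on the minus strand, GRCh38) stood at 10.1, 9.38 and 10.1 CPM in shCtrl replicates 1 to 3 and at 3.09, 3.16 and 2.61 CPM in shPRSS22 replicates 1 to 3. The groups did not overlap, and the log2 fold change was -1.74 (SE 0.135, adjusted p = 4.78e-12). Of 8 colorectal epithelial markers, 7 reached 1 CPM, with VIL1 below, and their summed level was 4396 to 4571 CPM in shCtrl and 4368 to 4614 CPM in shPRSS22. Of 12 fibroblast, immune and endothelial markers with rows, COL1A1, CD68 and VWF reached 1 CPM and CDH5 was at 0; their sum was 39.5 to 48.6 CPM in shCtrl and 46.0 to 55.3 CPM in shPRSS22. In bulk RNA, a smaller share of cells with a transcript and less of it per cell cannot be told apart.

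The subunit transcripts moved in both directions and by small amounts. Of 83 members with enough counts to test, 20 rose, 16 fell and 47 did not pass the test, beside 19.9% of all tested genes called higher and 19.3% called lower. These are 24.1% and 19.3% of the members tested, shares near the background. No member changed by more than 1.25-fold in either direction, while 17.5% of all tested genes did. The largest rise was 22.7%, for SDHB, and the largest fall was -19.1%, for NDUFB10. The median log2 fold change was 0.0043 over the members and -0.0056 over all tested genes, and the median absolute log2 fold change was 0.10 and 0.14. The median CPM was higher over the members than over all tested genes. Sizes of change were not compared with genes of similar level, so whether the members were steadier than such genes was not tested. The 3 libraries of each group did not overlap for 17 members that were higher and 18 that were lower in shPRSS22, beside 24.2% and 24.3% of all tested genes. Both directions were found within complexes I, II, IV and V, while complex III held 2 rises and no fall.

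**Figure D1:**
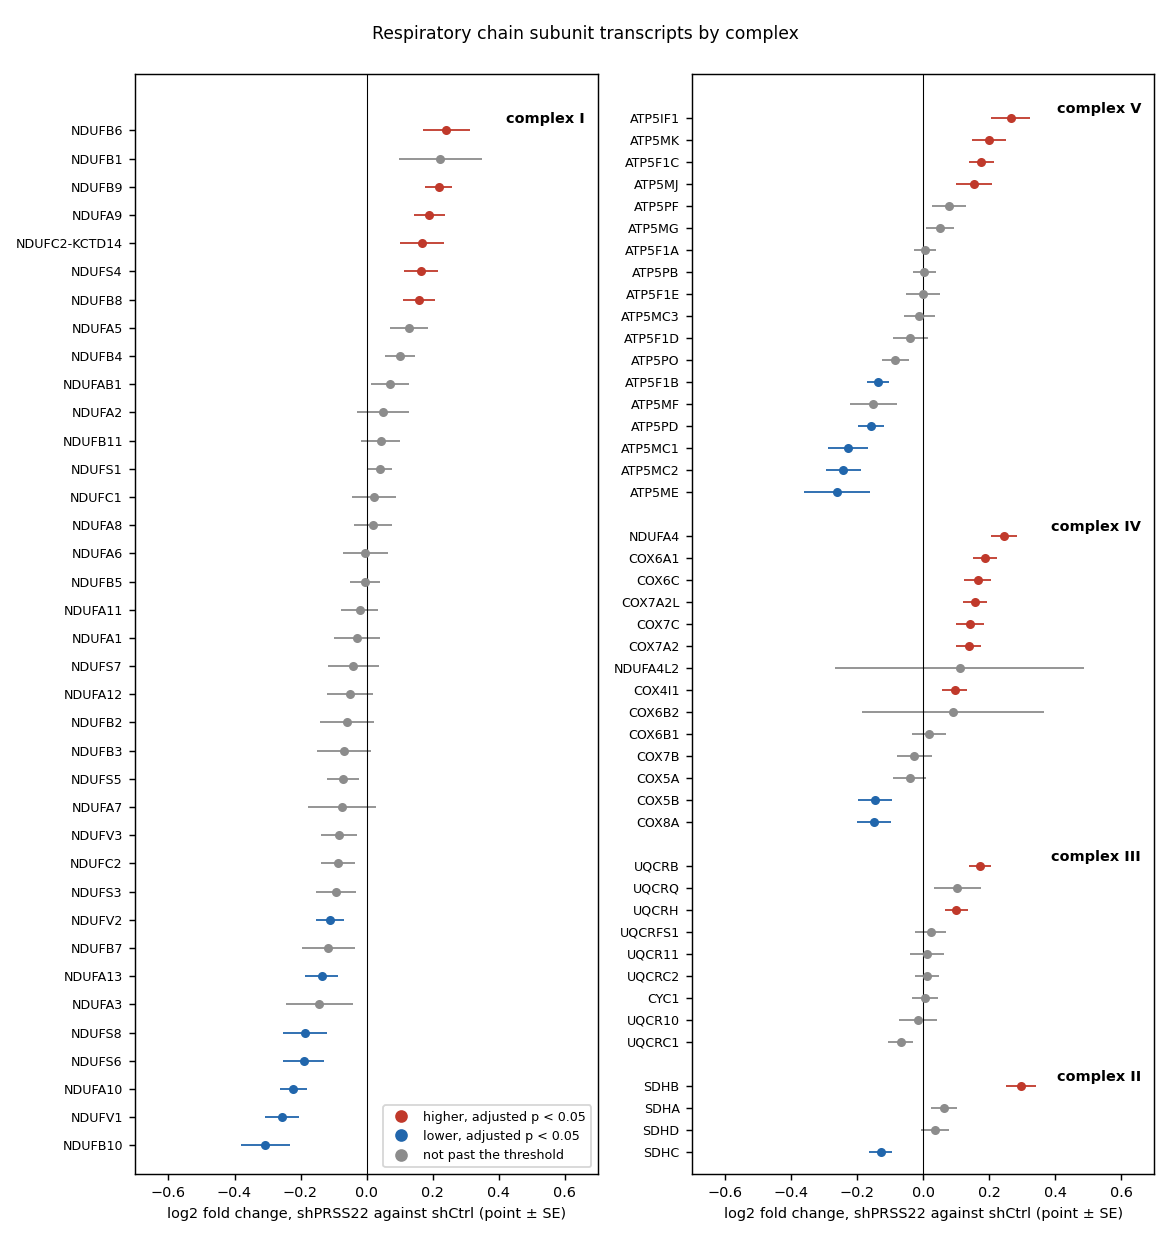
Log2 fold change of shPRSS22 over shCtrl (horizontal axis) for 82 of the 83 tested members, ordered within complexes I to V; bars are 1 standard error, and colour marks members that rose, fell or did not pass the test. All points lie between -0.31 and 0.29, and both colours appear in complexes I, II, IV and V.

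The first step of the chain from NADH runs through the 7 nuclear-encoded core subunits of complex I, which carry the flavin and the iron-sulphur clusters. Of these 7, 4 fell (57.1%) and none rose, beside 19.3% of all tested genes lower and 19.9% higher. The median log2 fold change of the 7 was -0.11, and a difference from other genes was not tested. NDUFV1 (chromosome 11, 67605653 to 67612554, plus strand), the flavin-bearing subunit where NADH binds, stood at 64.0, 68.7 and 63.3 CPM in shCtrl and at 55.3, 58.2 and 50.7 CPM in shPRSS22. Every shPRSS22 library was below every shCtrl library, and the change from 65.3 ± 2.93 to 54.7 ± 3.74 CPM was -0.26 (SE 0.0514, adjusted p = 0.000182). NDUFS8, an iron-sulphur subunit (-0.19, adjusted p = 0.0268), and NDUFV2, the partner of NDUFV1 (-0.11, adjusted p = 0.0402), were also among the core subunits that fell. The 3 core genes that did not pass the test lay between -0.09 and 0.04. Averaged over the 7 core genes on a log2 scale centred on the mean of all libraries, shCtrl libraries lay at 0.042, 0.075 and 0.052 and shPRSS22 libraries at -0.083, -0.0032 and -0.083.

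NDUFV1 kept its call when each library in turn was left out. Leaving out shCtrl replicate 1 cost the call of NDUFV2 (adjusted p = 0.0786), and replicate 2 that of NDUFS8 (0.0641). Dropping shCtrl replicate 3 ended the calls of NDUFV2 (adjusted p = 0.222) and NDUFS8 (0.175). Among knockdown libraries, replicate 1 decided NDUFV2 (adjusted p = 0.2) and NDUFS8 (0.184), and replicate 2 decided NDUFV2 (0.0623).

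The accessory subunits of complex I surround that core and serve its assembly and stability. Of the 30 accessory genes besides the readthrough locus described below, 5 rose and 4 fell. These are 16.7% and 13.3% of the 30, beside 19.9% and 19.3% of all tested genes. NDUFB10 (chromosome 16, 1959508 to 1961975, plus strand), in the membrane arm, had the largest fall of all members. It stood at 43.5, 41.0 and 41.7 CPM in shCtrl and at 30.0, 39.5 and 32.6 CPM in shPRSS22. The groups did not overlap, but shPRSS22 replicate 2 lay close to the controls while the other 2 were well below, and the change was -0.31 (SE 0.0749, adjusted p = 0.00293). NDUFB10 lies 891 kb from PRSS22 on the same chromosome. NDUFA10, a matrix-side subunit (chromosome 2, 239892450 to 240025402, minus strand), stood at 85.5, 88.6 and 86.9 CPM in shCtrl and at 73.6, 73.1 and 77.1 CPM in shPRSS22. Its groups were far apart relative to their SDs (87.0 ± 1.58 and 74.6 ± 2.19 CPM), with a log2 fold change of -0.22 (SE 0.0421, adjusted p = 8.92e-05). NDUFS6 (-0.19, adjusted p = 0.0147) and NDUFA13 (-0.14, adjusted p = 0.0288), also known as GRIM-19, were the other accessory subunits that fell.

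The 11 NDUFB genes, whose products build the distal membrane arm, gave 3 rises beside the fall of NDUFB10. These are 27.3% higher and 9.09% lower, beside 19.9% and 19.3% of all tested genes. NDUFB9 stood at 117, 124 and 115 CPM in shCtrl and at 132, 139 and 144 CPM in shPRSS22. All shPRSS22 libraries were above all shCtrl libraries, and the change was 0.22 (SE 0.0397, adjusted p = 4.9e-05). NDUFB6 had 24.9, 25.3 and 28.9 CPM in shCtrl and 28.3, 34.0 and 31.3 CPM in shPRSS22. Here the highest control lay above the lowest knockdown library, with a change of 0.24 (SE 0.0709, adjusted p = 0.00709). NDUFB8 was the other NDUFB gene that rose (0.16, adjusted p = 0.0101), a call that DESeq2 did not make (adjusted p = 0.0628).

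NDUFA9, which holds the junction of the complex I arms, and NDUFS4, an accessory subunit of the matrix arm whose loss is known to cause Leigh syndrome, also rose. NDUFA9 had 51.1, 51.4 and 52.3 CPM in shCtrl and 57.9, 59.8 and 59.0 CPM in shPRSS22. The groups were separate and tight, at 51.6 ± 0.650 and 58.9 ± 0.984 CPM, and the change was 0.19 (SE 0.0473, adjusted p = 0.00178). NDUFS4 changed by 0.17 (adjusted p = 0.0102). Across the whole of complex I, 6 genes rose and 8 fell, or 15.8% and 21.1%, beside 19.9% and 19.3% of all tested genes. These shares are near the background. The 24 genes that did not pass the test lay between -0.14 (NDUFA3) and 0.22 (NDUFB1).

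The calls of 4 accessory genes hung on single libraries. NDUFS4 (adjusted p = 0.0565) depended on shCtrl replicate 1, and NDUFA13 (0.0542) on replicate 2 of that group. Dropping shCtrl replicate 3 ended the calls of NDUFS4 (adjusted p = 0.0559), NDUFS6 (0.0617) and NDUFA13 (0.124). Of the knockdown libraries, replicate 1 decided NDUFS6 (adjusted p = 0.0505) and NDUFA13 (0.0618), replicate 2 decided NDUFS4 (0.0536) and NDUFB6 (0.0572), and replicate 3 decided NDUFS6 (0.0543) and NDUFA13 (0.0941).

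One locus was counted under 2 names. NDUFC2, a membrane-arm subunit, stood at 46.1, 46.0 and 46.2 CPM in shCtrl and at 43.4, 42.0 and 44.7 CPM in shPRSS22, and its change of -0.09 did not pass the test (adjusted p = 0.186). Its readthrough transcript NDUFC2-KCTD14 stood at 27.2, 29.7 and 27.0 CPM in shCtrl and at 30.1, 34.6 and 29.5 CPM in shPRSS22, and was called higher (0.17, adjusted p = 0.0466). All 3 NDUFC2 values were lower in shPRSS22, whereas the readthrough groups overlapped. The readthrough was not called when replicate 1 (adjusted p = 0.144) or 3 (0.147) of shCtrl, or replicate 2 of shPRSS22 (0.304), was left out. Summed, the locus gave 73.2, 75.7 and 73.2 CPM in shCtrl and 73.6, 76.6 and 74.1 CPM in shPRSS22, with a log2 fold change of 0.0144 (adjusted p = 0.821). How shared reads were divided between these names is not given in the sources used here, so the separate values are uncertain.

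Complex II, the succinate dehydrogenase that also works in the tricarboxylic acid cycle, is wholly nuclear-encoded, and its 4 genes did not move together. SDHB, the iron-sulphur subunit (chromosome 1, 17018722 to 17054170, minus strand), stood at 74.7, 77.5 and 85.0 CPM in shCtrl and at 93.1, 98.9 and 99.1 CPM in shPRSS22. Every shPRSS22 library exceeded every shCtrl library, from 79.1 ± 5.31 to 97.0 ± 3.38 CPM, and the change was 0.29 (SE 0.0455, adjusted p = 4.26e-06). SDHC, a membrane anchor that helps bind ubiquinone (chromosome 1, 161314257 to 161375340, plus strand), stood at 180, 180 and 182 CPM in shCtrl and at 163, 163 and 170 CPM in shPRSS22. These groups were also separate, in the opposite direction, with a change of -0.13 (SE 0.0342, adjusted p = 0.0029).

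The other 2 subunits overlapped between groups. SDHA, the flavoprotein, stood at 102, 97.3 and 101 CPM in shCtrl and at 99.4, 107 and 107 CPM in shPRSS22 (0.06, SE 0.0407, adjusted p = 0.232). SDHD, the other anchor, stood at 91.1, 87.0 and 92.3 CPM in shCtrl and at 92.2, 95.6 and 89.2 CPM in shPRSS22 (0.03, SE 0.0416, adjusted p = 0.542). The fall of SDHC was not seen in the deposited length-scaled values: its mean was 128 TPM (transcript abundance scaled by effective length) in both groups, and limma on log2(TPM + 1) gave an adjusted p of 0.988. The effective length implied by the deposited counts and FPKM was 2240 bases in shCtrl and 2063 bases in shPRSS22, and whether reads were assigned to different SDHC isoforms was not tested.

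The SDHB promoter is printed because SDHB had the largest rise of all members. It is the RefSeq sequence of GRCh38.p14, chr1:17053983-17054282 on the minus strand, 5′ to 3′, covering 250 bases before to 50 bases after the annotated start.
SDHB: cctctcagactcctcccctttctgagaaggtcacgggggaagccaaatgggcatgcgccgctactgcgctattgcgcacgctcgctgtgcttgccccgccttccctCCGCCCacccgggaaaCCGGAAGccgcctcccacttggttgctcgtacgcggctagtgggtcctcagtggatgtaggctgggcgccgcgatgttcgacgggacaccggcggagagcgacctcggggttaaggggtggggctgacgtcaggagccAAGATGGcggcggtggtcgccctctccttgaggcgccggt
Capitals mark matches to motifs searched on both strands: CCGGAAG for ETS factors, AAGATGG for YY1 and GGGCGG for SP factors, the last matched here on the opposite strand. These 3 matches do not overlap, and no NRF1 motif (GCGCA, any base, then GCGC) was found in this window.

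Complex III, the cytochrome bc1 complex, held the most even values. Its nuclear-encoded catalytic subunits CYC1, the cytochrome c1 gene (0.01, adjusted p = 0.928), and UQCRFS1, the Rieske iron-sulphur gene (0.02, adjusted p = 0.74), did not pass the test, nor did UQCRC1 (-0.07) and UQCRC2 (0.01), which form its matrix-side core proteins. Of 9 tested genes, 2 rose and none fell, or 22.2% and 0%, beside 19.9% and 19.3% of all tested genes. UQCRB, which helps shape the quinone pocket, stood at 166, 171 and 168 CPM in shCtrl and at 192, 194 and 184 CPM in shPRSS22. Its groups were separate, with a change of 0.17 (SE 0.0346, adjusted p = 0.000179). UQCRH, the acidic hinge subunit next to cytochrome c1, stood at 137, 129 and 135 CPM in shCtrl and at 143, 143 and 144 CPM in shPRSS22. The knockdown libraries were all above the controls by a small margin (0.10, SE 0.036, adjusted p = 0.0259), and UQCRH was not called without shCtrl replicate 2 (adjusted p = 0.154). The 7 uncalled genes lay between -0.07 and 0.10.

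Complex IV, cytochrome c oxidase, gave 7 rises and 2 falls among 14 tested genes, with a median log2 fold change of 0.10, beside the background of 19.9% and 19.3% of all genes. A difference between complexes was not tested. NDUFA4 (chromosome 7, 10931951 to 10940256, minus strand) had the largest rise in the complex, standing at 108, 112 and 108 CPM in shCtrl and at 122, 133 and 132 CPM in shPRSS22. All 3 knockdown libraries exceeded the controls, with a change of 0.24 (SE 0.0394, adjusted p = 9.33e-06). COX6A1, a subunit of the ubiquitous form, stood at 136, 137 and 139 CPM in shCtrl and at 150, 163 and 155 CPM in shPRSS22. It was again separate between groups (0.19, SE 0.0367, adjusted p = 0.000143).

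COX6C stood at 79.5, 78.6 and 76.5 CPM in shCtrl and at 87.8, 90.0 and 85.1 CPM in shPRSS22 (0.16, SE 0.0418, adjusted p = 0.00214). COX7A2L, which joins complexes III and IV into supercomplexes, stood at 132, 136 and 136 CPM in shCtrl and at 144, 154 and 154 CPM in shPRSS22 (0.16, SE 0.0367, adjusted p = 0.000986). Neither gene's groups overlapped. COX7C (0.14, adjusted p = 0.0109), COX7A2 (0.14, adjusted p = 0.00581) and COX4I1 (0.10, adjusted p = 0.0495) also rose. COX4I1, the ubiquitous form of a subunit linked to regulation by ATP, overlapped between groups, and so did COX7C.

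The 2 falls in complex IV were COX8A and COX5B. COX8A, a small membrane subunit, stood at 58.6, 52.9 and 54.5 CPM in shCtrl and at 49.7, 51.1 and 48.6 CPM in shPRSS22 (-0.15, SE 0.0508, adjusted p = 0.0184). COX5B, a zinc-binding subunit, stood at 54.3, 57.3 and 56.1 CPM in shCtrl and at 47.1, 53.0 and 51.4 CPM in shPRSS22 (-0.15, SE 0.0513, adjusted p = 0.0228). In both genes the groups were separate, but 1 library could end either call. Without shCtrl replicate 1, COX8A (adjusted p = 0.149), COX7C (0.0506) and COX4I1 (0.123) were not called. Replicate 2 of that group decided COX5B (adjusted p = 0.092) and COX4I1 (0.0663), and replicate 3 decided COX5B (0.0626), COX7C (0.0531) and COX4I1 (0.14). Of the knockdown libraries, replicate 1 decided COX5B (adjusted p = 0.181), replicate 2 decided COX7C (0.0842) and COX4I1 (0.374), and replicate 3 decided COX8A (0.0638).

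Tissue-restricted isoforms of complex IV were scarce. COX6B2, a testis form, averaged 1.37 CPM and NDUFA4L2, a hypoxia-responsive paralog, averaged 0.689 CPM, and neither passed the test (0.09 and 0.11). COX4I2, the lung form, had 1 count in shPRSS22 replicate 1 and 0 in the other 5 libraries, which allows up to 3 counts, or 0.195 to 0.201 CPM, in each. COX6A2, COX7A1, COX7B2 and COX8C were not among the 17269 genes under these symbols, so they were not analysed here.

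**Figure D2:**
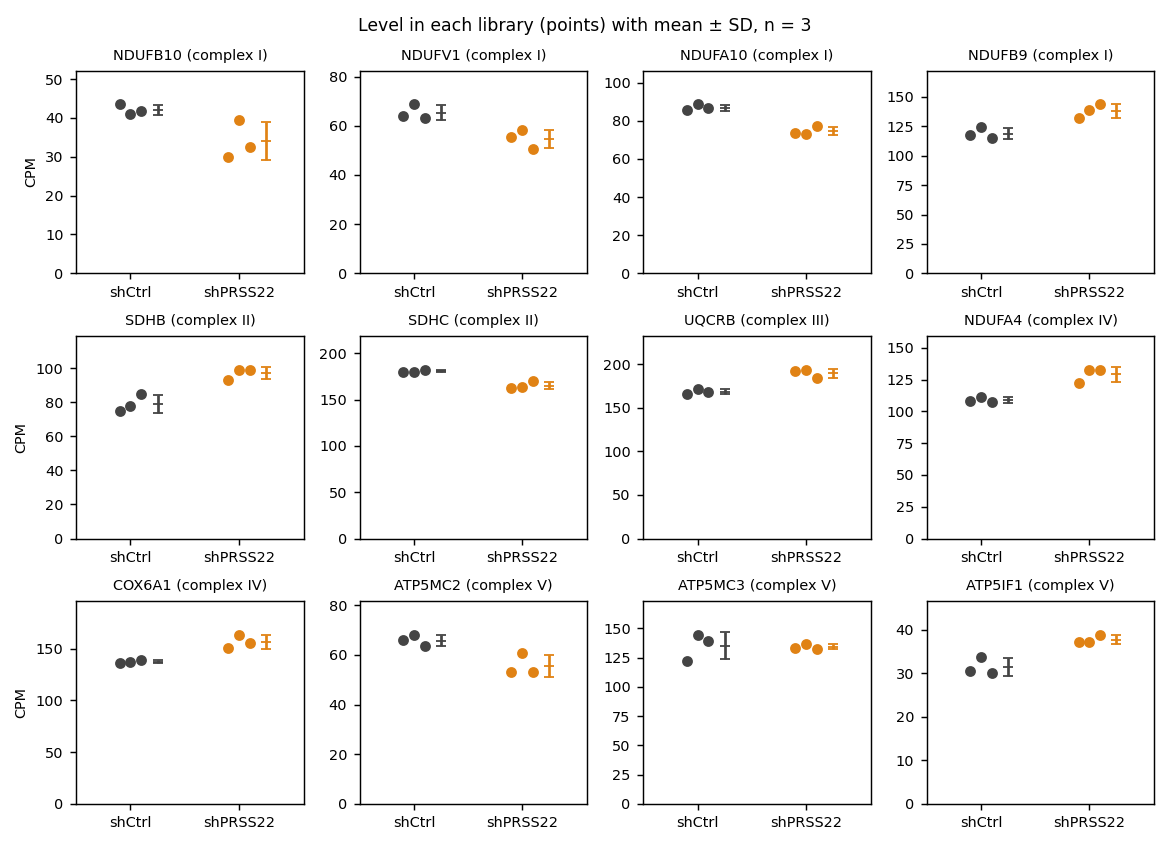
CPM in each library (vertical axes, one panel per gene) for 12 members, with shCtrl and shPRSS22 points side by side and each group's mean ± SD (n = 3) beside them. SDHB, NDUFA4 and NDUFB9 were higher and NDUFV1, NDUFB10 and ATP5MC2 lower in shPRSS22.

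Complex V, the ATP synthase, gave 4 rises, 5 falls and 9 uncalled genes of 18 tested, or 22.2% higher and 27.8% lower beside 19.9% and 19.3% of all tested genes. Its inhibitor ATP5IF1, which blocks ATP hydrolysis when the membrane potential drops (chromosome 1, 28236109 to 28246906, plus strand), had the largest rise. ATP5IF1 stood at 30.5, 33.7 and 29.9 CPM in shCtrl and at 37.2, 37.1 and 38.8 CPM in shPRSS22. The groups were well apart, with a change of 0.26 (SE 0.0595, adjusted p = 0.000642).

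The catalytic F1 head holds 3 alpha and 3 beta subunits around a central shaft. ATP5F1B, the beta subunit that makes ATP, stood at 539, 562 and 538 CPM in shCtrl and at 489, 509 and 491 CPM in shPRSS22. It fell in every library (-0.14, SE 0.0335, adjusted p = 0.0014), whereas its partner ATP5F1A, the alpha subunit, had a change of 0.00 (adjusted p = 0.936). ATP5F1C, the gamma subunit of the shaft, stood at 129, 133 and 134 CPM in shCtrl and at 146, 156 and 147 CPM in shPRSS22. It rose without overlap between groups (0.18, SE 0.0369, adjusted p = 0.00029).

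The ATP5F1C promoter is printed because ATP5F1C had the lowest adjusted p among called members with an NRF1 motif. It is the RefSeq sequence of GRCh38.p14, chr10:7787927-7788226 on the plus strand, over the same window.
ATP5F1C: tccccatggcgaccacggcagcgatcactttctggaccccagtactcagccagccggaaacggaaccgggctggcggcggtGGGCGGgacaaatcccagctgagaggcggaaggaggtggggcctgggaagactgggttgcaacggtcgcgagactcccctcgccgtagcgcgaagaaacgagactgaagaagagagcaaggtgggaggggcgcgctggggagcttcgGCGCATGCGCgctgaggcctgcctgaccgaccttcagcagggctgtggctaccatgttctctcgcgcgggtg
Capitals mark the SP match GGGCGG and the NRF1 match GCGCATGCGC, which do not overlap. NRF1 is a transcription factor long studied for its part in respiratory gene expression.

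The rotating c ring is encoded by 3 paralogs whose mature proteins are identical, so their transcripts feed one product. ATP5MC2 stood at 65.8, 68.1 and 63.4 CPM in shCtrl and at 53.2, 60.7 and 53.0 CPM in shPRSS22 (-0.24, SE 0.0517, adjusted p = 0.000364). ATP5MC1 stood at 31.3, 31.1 and 32.5 CPM in shCtrl and at 27.4, 26.3 and 27.3 CPM in shPRSS22 (-0.23, SE 0.0606, adjusted p = 0.00309). Both were separate between groups. ATP5MC3, the most abundant by CPM, stood at 122, 144 and 139 CPM in shCtrl and at 133, 137 and 133 CPM in shPRSS22 (-0.01, SE 0.0462, adjusted p = 0.868). Its groups overlapped, and shCtrl replicate 1 was the lowest of all 6. The 3 paralogs summed to 233 ± 12.3 CPM in shCtrl and 217 ± 6.04 CPM in shPRSS22, which is 93.2% of the control. The groups overlapped for this sum, with shCtrl replicate 1 at 219 CPM and shPRSS22 replicate 2 at 224 CPM. The share of ATP5MC3 in that sum was 58.1% ± 2.04 in shCtrl and 61.9% ± 0.665 in shPRSS22. Neither the sum nor these shares were tested.

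Of the remaining stalk and membrane subunits, ATP5PD, a peripheral stalk subunit, stood at 131, 131 and 143 CPM in shCtrl and at 118, 122 and 122 CPM in shPRSS22 (-0.16, SE 0.039, adjusted p = 0.0016). ATP5MK, a small subunit linked to synthase dimers, stood at 49.5, 55.5 and 55.8 CPM in shCtrl and at 58.6, 64.3 and 61.6 CPM in shPRSS22 (0.20, SE 0.0521, adjusted p = 0.00282). Both were separate between groups, in opposite directions. ATP5ME, the subunit e of the synthase dimer interface, stood at 11.95, 14.92 and 15.3 CPM in shCtrl and at 11.5, 10.8 and 12.8 CPM in shPRSS22 (-0.26, SE 0.0996, adjusted p = 0.0364). The lowest control lay within the knockdown range. ATP5MJ, another small membrane subunit, also rose (0.15, adjusted p = 0.024). In shCtrl, leaving out replicate 1 ended the call of ATP5MJ (adjusted p = 0.106), replicate 2 ended both ATP5ME (0.152) and ATP5MJ (0.0596), and replicate 3 ended ATP5ME (0.184). In shPRSS22, replicate 1 decided ATP5ME (adjusted p = 0.0822) and replicate 2 decided ATP5ME (0.149) and ATP5MJ (0.0968).

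Averaged by complex, the libraries overlapped between groups. On the centred log2 scale, the 38 complex I genes had means of -0.024, 0.032 and 0.017 in shCtrl and -0.048, 0.038 and -0.015 in shPRSS22. The 14 complex IV genes had means of -0.084, 0.030 and -0.056 in shCtrl and -0.0036, 0.078 and 0.036 in shPRSS22. For complex V the values were -0.038, 0.053 and 0.016 in shCtrl and -0.035, 0.018 and -0.014 in shPRSS22. Libraries within a group differed by as much as the groups did, and replicate 2 was the highest library of each group in these 3 complexes. By replicate number, each shPRSS22 library lay above its shCtrl counterpart in complex IV, while complexes I and V went both ways. Same-numbered libraries were not taken as pairs, and a shift of complex IV was not tested. Complex III spanned -0.042 to 0.045, and complex II had shCtrl libraries at -0.045, -0.064 and 0.0097 and shPRSS22 libraries at -0.0056, 0.057 and 0.047.

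**Figure D3:**
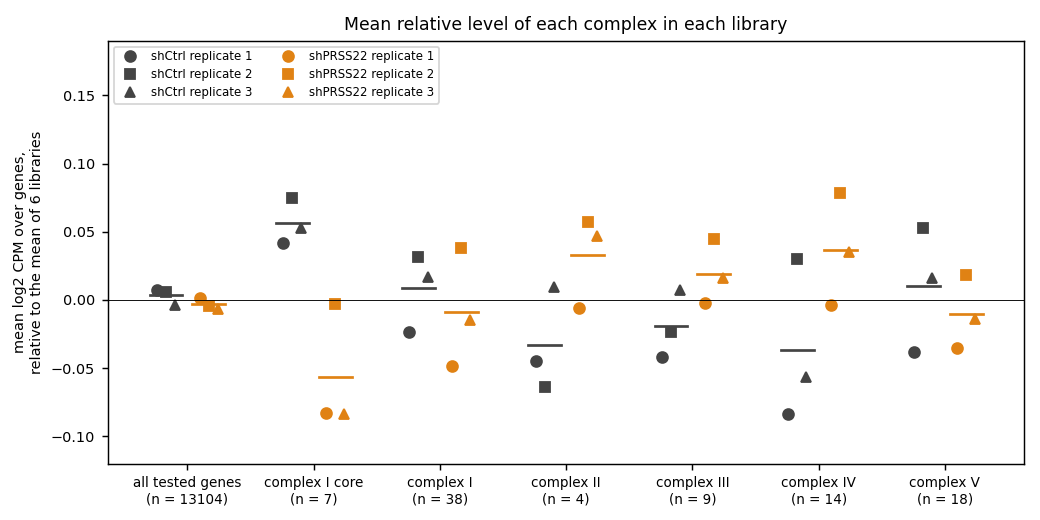
Mean log2 level of all tested genes, of the tested genes of each complex and of the 7 core genes of complex I, in each library relative to the mean of all 6 libraries (vertical axis, log2). Groups overlap for all complexes, while the complex I core genes lie at 0.042 to 0.075 in shCtrl and at or below -0.0032 in shPRSS22.

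The members that rose and those that fell differed in base composition. The GC content of a gene was the median over its annotated protein-coding transcripts, which may differ from the transcripts that were counted. Median transcript GC content was 45.7% over the 20 members that rose, 54.8% over the 16 that fell and 49.9% over the 47 uncalled. The same medians over all tested genes were 46.6%, 52.5% and 50.9%. For the 7 core genes of complex I, of which 4 fell, the median GC content was 55.5%, beside 50.8% over complex I. Across the 83 members, the Spearman rho of log2 fold change and GC content was -0.44, and across 13032 genes it was -0.17; genes share libraries and are not independent replicates. The fifth of all genes with the lowest GC content (31.3% to 42.6%) had a median log2 fold change of 0.049, and the fifth with the highest (59.4% to 75.2%) had -0.058. SDHB, at 45.9%, rose and NDUFV1, at 60.5%, fell. Other called members went against this order: NDUFV2, at 44.9%, fell and NDUFB8, at 54.7%, rose. After a correction for GC content, 18 members rose and 12 fell, beside 19.7% and 19.1% of all genes, and 30 of the 36 calls stood. The 6 lost were ATP5ME (adjusted p = 0.0643), ATP5MJ (0.0614), COX7C (0.058), COX8A (0.0791), NDUFA13 (0.135) and NDUFS8 (0.167). The part of GC content in the remaining changes was not tested.

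**Figure D4:**
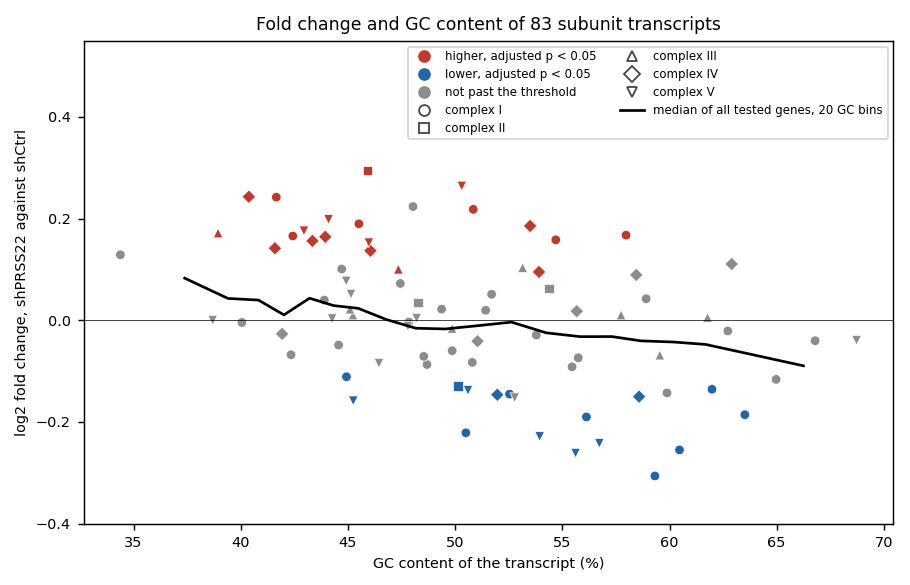
Log2 fold change (vertical axis) against transcript GC content in percent (horizontal axis) for the 83 tested members, coloured by whether they rose, fell or did not pass the test, with marker shapes for complexes I to V. The line is the median of all tested genes with a GC value in 20 bins of GC content. Members that rose lie mostly at lower GC content (median 45.7%) than those that fell (median 54.8%).

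Promoters of 70 of the 87 members were found in the RefSeq table, each from 250 bases before to 50 bases after the start. The NRF1 motif was in 16 of these, or 22.9%, beside 11.4% of the promoters of tested genes and 6.28% of all 27305 promoters. It was in 4 of 7 complex III promoters and in 0 of 13 complex IV promoters. Of promoters with a call, 3 of 17 from members that rose, 1 of 13 from members that fell and 12 of 40 from uncalled members held it. The YY1 motif AAGATGG was in 22.9% of member promoters, beside 7.42% of those of tested genes and 6.06% of all. The ETS motif CCGGAAG was in 28.6%, 18.9% and 10.7%, and the SP motif GGGCGG in 61.4%, 70.2% and 44.6%. The antioxidant response element TGACNNNGC was in 14.3%, 15% and 13.6%. A match describes letters in this window and does not show binding, and these shares were not tested.

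The proteins that assemble the complexes were a separate list of 62 genes. Of 59 tested assembly factors, 9 rose and 10 fell, with a median log2 fold change of -0.047. These counts, and those by complex and for the carriers and regulators that follow, stand beside 19.9% of all tested genes higher and 19.3% lower. Apart from the replicate block, other settings and libraries left out are not reported for the calls in these lists. Calls there with an adjusted p near 0.05 are therefore uncertain. For complex I, 3 of 17 rose and none fell, among them NDUFAF4 (0.32, adjusted p = 0.000152), an assembly factor of the early matrix arm, at 26.9 ± 1.90 CPM in shCtrl and 33.7 ± 1.59 CPM in shPRSS22, and TMEM126B (0.23, adjusted p = 0.00785). For complex II, 2 of 4 fell, including SDHAF1 (-0.38, adjusted p = 0.0152), which brings iron-sulphur clusters to SDHB. SDHAF1 thus moved against SDHB.

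For complex III, 1 of 7 assembly factors rose, UQCC1 (0.24, adjusted p = 0.00342), and 3 fell. BCS1L, which inserts the Rieske protein UQCRFS1, fell from 19.4 ± 0.933 to 14.96 ± 0.535 CPM (-0.37, adjusted p = 0.000314), and UQCC2 fell as well (-0.19, adjusted p = 0.0396). For complex IV, 4 of 26 rose and 3 fell. The metallochaperone-family gene CMC2 rose from 30.0 ± 1.61 to 38.5 ± 0.125 CPM (0.36, adjusted p = 8.78e-06), and the copper chaperone COX17 rose too (0.31, adjusted p = 0.0032). SCO1, which passes copper to the oxidase, fell (-0.25, adjusted p = 0.000142), as did COX18 (-0.33, adjusted p = 0.0145). For complex V, TMEM70 rose (0.13, adjusted p = 0.0447) and 2 of 5 fell, among them ATPAF2 (-0.34, adjusted p = 0.0061), a chaperone of the alpha subunit.

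Of 14 genes for ubiquinone and cytochrome c, the mobile carriers between complexes, 2 rose and none fell: COQ10A (0.33, adjusted p = 0.0148) and COQ10B (0.27, adjusted p = 6.19e-05), both lipid-binding proteins for ubiquinone. Of 13 tested regulators of respiratory genes, 2 rose and 1 fell. TFAM, the packaging protein of mitochondrial DNA, rose from 88.3 ± 2.43 to 99.0 ± 2.88 CPM (0.16, adjusted p = 0.00166). POLRMT, the mitochondrial RNA polymerase, fell from 64.2 ± 0.430 to 51.8 ± 3.14 CPM (-0.31, adjusted p = 7.05e-06). YY1 rose by a small amount (0.09, adjusted p = 0.0396). TFAM and POLRMT act on the same DNA and moved in opposite directions.

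The authors' deposited table gave a q-value under 0.05 to 13 members with a rise and 7 with a fall, beside 9.69% and 8.89% of the genes with a q-value there. Each of these 20 had a call in the same direction with edgeR. DESeq2 called 14 members higher and 8 lower, beside 13.9% and 12.9% of all genes, and 14 of the 36 edgeR calls were not made, with adjusted p from 0.0576 to 0.181. Limma on deposited TPM called 19 and 14, beside 17% and 14.4%. With the replicate number as a block, edgeR called 20 higher and 16 lower, beside 21.2% and 21%. Transcript levels do not show the amount or activity of a complex.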

How the data were processed

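Gene-level values were analysed for 6 polyadenylated RNA libraries. The authors' read counts have decimals in 3047 of 17269 genes and were treated as estimated counts. The deposited table holds these counts, FPKM and TPM per library, per the file headers. It also holds the authors' normalised read counts, treated as a signal, and the authors' log2 fold changes, p-values and q-values, per the file headers. The submitters' processing notes name RSEM 1.3.1, Bowtie2 2.3.4.3, HISAT2 2.2.1, FastQC 0.12.1, R 4.3.1, DESeq2 1.4.5 and build GRCh38.p13, without stating their roles; strandedness is not given in the sources used here.

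Counts were rounded and tested with edgeR 4.0.16 (TMM, filterByExpr, robust quasi-likelihood F test, Benjamini-Hochberg adjustment over 13104 genes; common biological coefficient of variation 2.97%). The script was tested on simulated data. Alternatives used DESeq2 1.42.0, limma 3.58.1 on log2(TPM + 1), other scaling and filters, a replicate block, a GC correction in 20 bins and each library left out. Positions and GC content came from GENCODE 29 (GRCh38; positions for 85 of 87 members, GC content for 87), promoters from RefSeq GRCh38.p14. Estimated counts of 14 members had decimals, which can mark reads shared with other genes.

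Not tested for low counts were UQCRHL, ATP5MGL, COX4I2 and ATP5MF-PTCD1; the last had rounded counts of 23 and 15 in shPRSS22 replicates 1 and 2 and 0 elsewhere. All called members were named, apart from 1 that is not reported here. Per-library values were given for the 3 largest rises and falls per complex with a mean of at least 5 CPM. They were also given for PRSS22, the SDH genes, the c-ring paralogs, NDUFA4, COX7A2L, ATP5PD, ATP5F1B, NDUFC2 and its readthrough. From each other list the 2 largest rises and falls with at least 5 CPM were named. Members and lists were chosen with earlier results of these data known. The deviations of same-numbered libraries from their group means had correlations of 0.0194, 0.0329 and 0.0908. Those of differently numbered libraries ran from -0.115 to 0.0839. The numbers were not taken to pair libraries. Detection limits of 3 counts cover counting error only.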

Additional observations from a re-analysis of the deposited data

How the results depend on the processing

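Of the 36 calls among the subunits, 21 stood without each library in turn and 19 stood in every setting run. With DESeq2, 14 calls were lost, with a GC correction 6, and with limma on deposited TPM 4; the GC and TPM settings were added after seeing the data. With the replicate block, 20 members were higher and 16 lower, and all 36 calls stood; the block changed no other call named here. RLE scaling also called 36, and no low-count filter 38, adding NDUFA5 and ATP5MF-PTCD1.

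DESeq2 called 14 members higher and 8 lower (13.9% and 12.9% of all genes). By complex, it called 3 higher and 3 lower in complex I, 1 higher in complex III and 0 lower in complex IV. An adjusted p under 0.01 left 13 higher and 8 lower members, with 3 higher and 3 lower in complex I, 1 higher in complex III and 0 lower in complex IV. With the GC correction, with or without the replicate block, 1 complex IV gene was lower, and the complex III median became 0.0373, or 0.0386 with the block. Deposited TPM gave 0 lower genes in complex II and 1 higher in complex III. Without each library in turn, members lower ranged from 10 to 15 (lowest without shPRSS22 replicate 1), complex I lower from 4 to 8 (4 without shCtrl replicate 3 or shPRSS22 replicate 1, 5 without shCtrl replicate 2 or shPRSS22 replicate 3), complex III higher from 1 to 3 (1 without shCtrl replicate 2), complex IV lower from 1 to 2 (2 only without shPRSS22 replicate 2) and the complex IV median from 0.0931 to 0.1551 (highest without shCtrl replicate 2). The uncalled change of ATP5MC3 ranged from -0.0795 to 0.038 over the libraries left out, with 0.038 without shCtrl replicate 2, 0.0117 without shCtrl replicate 3 and 0.0023 with TPM, and that of NDUFC2 to 0.0144 when summed with its readthrough locus; the causes were not tested, apart from that sum.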

Other observations

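Levels were not ranked between subunit genes per length. For several genes the effective length implied by the deposited counts and FPKM was far from the median annotated transcript length. It was 31.2 bases for ATP5ME, annotated at 365, and 11347 bases for NDUFS1, annotated at 2382.5. These were the lowest and highest implied lengths, with 11 of 87 members under 200 bases and 15 over 2000 bases. ATP5ME, at 12.9 CPM, was therefore listed at 658 TPM, whereas UQCRB, at 179 CPM, was listed at 35.1 TPM. Among core subunits of complex I, which are present in equal numbers in the complex, NDUFS1 was listed at 17.1 TPM and NDUFV2 at 254 TPM, while their levels were 122 and 86.8 CPM. NDUFA9 (10.96 TPM, 8049 bases) and ATP5F1E (26.6 TPM, 3296 bases) were likewise listed low beside their lengths.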
